A study of Mus musculus with 10 samples.

Results

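The regulators of mitochondrial biogenesis examined here are 10 listed genes, Ppargc1a, Ppargc1b, Perm1, Nrf1, Gabpa, Esrra, Tfam, Tfb1m, Tfb2m and Phb2, taken by their symbols from the 21160 genes of a 3′UTR count table of mouse gastrocnemius (GAS). The muscle came from wild-type male C57BL/6J mice (C57BL/6JBomTac in the methods of the study) with diet-induced obesity (DIO), which ate the high-fat diet D12492i from an age of 9 weeks and had done so for 9 weeks when treatment began. The muscles are described as those of mice aged 30 weeks, somewhat less than the stated intervals add up to. In the ASO group, 5 mice (titled LNA, treatment RES-010) received an antisense oligonucleotide against the microRNA miR-22 under the skin at 10 mg/kg each week for 14 weeks. The 5 CTRL mice (titled VHL) had the same diet and schedule and received saline, so an effect of giving any oligonucleotide and an effect of blocking miR-22 cannot be told apart. No group on a lean diet was analysed here, and the level of miR-22 itself was not analysed here. The comparison asks whether the transcripts of these regulators differed between obese muscle with and without the ASO.

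Most mitochondrial proteins are encoded in the nucleus, and their genes are switched on together by a small set of regulators. PGC-1α (Ppargc1a) and PGC-1β (Ppargc1b) are coactivators that bind no DNA themselves and work through factors such as NRF1, GABPA (also called NRF2α) and the estrogen-related receptor ERRα (Esrra), while PERM1 is a muscle-enriched regulator of the same programme. These factors drive Tfam, Tfb1m and Tfb2m, whose proteins act on mitochondrial DNA or mitochondrial ribosomal RNA, and in muscle the programme is known to be raised by endurance exercise. PHB2 is a prohibitin, a scaffold of the inner mitochondrial membrane that also serves as a receptor in mitophagy.

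miR-22-3p, the strand blocked by the ASO, recognises its targets mainly through its seed, bases 2 to 8, which are in capitals here because the search for sites among the regulators rests on them (sequence from RefSeq).

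mmu-miR-22-3p: aAGCUGCCaguugaagaacugu

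For every gene, its longest 3′UTR in GENCODE M39 (GRCm39) was searched on the transcribed strand for the full seed match GGCAGCT and for its inner 6 bases, GCAGCT. A full match was present in 1 of the 10 regulators, Nrf1, against 21.7% of the 7781 tested genes with an annotated 3′UTR. The inner 6 bases were present in Nrf1 and Ppargc1a, against 52.5% of those genes. The sites are printed 5′ to 3′ with 10 flanking bases, the matched bases in capitals. The full Nrf1 match lies at 6:30152370-30152376 (plus strand), the shorter one at 6:30152737-30152742, and the Ppargc1a match at 5:51613075-51613080 (minus strand), outside the counted stretches of that gene.

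Nrf1 site 1: agagacacacGGCAGCTggcccaggtg
Nrf1 site 2: ccagctgtctGCAGCTgtatttcagc
Ppargc1a site: ccaggccaatGCAGCTaattttgaca

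Of the 9 regulators tested for a difference, 2 rose with the ASO, 1 fell and 6 did not pass the threshold. Phb2 was 1.68-fold and Tfb2m 1.59-fold the CTRL level, and Gabpa was at 0.494 of it, with log2 fold changes of 0.75, 0.67 and −1.02. The coactivators Ppargc1a and Ppargc1b, the muscle regulator Perm1, the factor Nrf1 and the mitochondrial proteins' genes Tfam and Tfb1m were not called. Across all 7819 tested genes, 11.7% were higher and 17.5% lower with the ASO in edgeR's quasi-likelihood test at a Benjamini-Hochberg adjusted p of 0.05, so 2 and 1 of 9 regulators lie near what all genes gave. The median log2 fold change was 0.26 over the 9 regulators and −0.03 over all tested genes. With each gene represented by its most distal segment alone, it was −0.06 over the 8 regulators tested there and −0.03 over all genes. In these bulk samples a change in the share of a cell type and a change in RNA per cell cannot be told apart.

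The libraries differed between groups in ways that the regulators share. Every ASO library was deeper than every CTRL library, with totals of 2239186 to 2632560 counts against 1606909 to 2116720. The ASO libraries also held more of their counts at the 3′ end. In 1261 genes with well-separated segments, distal counts were set against counts further upstream in each library, and the median log2 ratio was 1.18 to 1.77 with the ASO and −0.59 to 0.43 in CTRL. The summed level of 8 skeletal muscle markers was 80438 to 116920 CPM with the ASO and 38468 to 74870 CPM in CTRL. CPM are counts scaled to a common library size, the unit of every level given here. Nearly all of that sum came from Acta1 (1055906 counts over the 10 libraries) and Ckm (599765), with Myh7 next at 963. Mb, Tnnt3 and Ryr1 were at 0 counts in all 10 libraries, and of the 3 muscle markers tested only Ckm was called. The summed adipocyte markers ranged from 843 to 13261 CPM in CTRL and from 714 to 3619 CPM with the ASO, and the macrophage, endothelial, Schwann cell, fibroblast and blood marker sums overlapped between groups as well, with no marker called and with Adgre1, Cd163 and Dcn at 0. A marker at 0 cannot be read as an absent transcript, since read pairs shared by overlapping segments appear uncounted. Whether that holds for each of these markers was not tested. The part of depth, 3′ shift and muscle marker content in the differences given here was not tested.

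**Figure D1:**
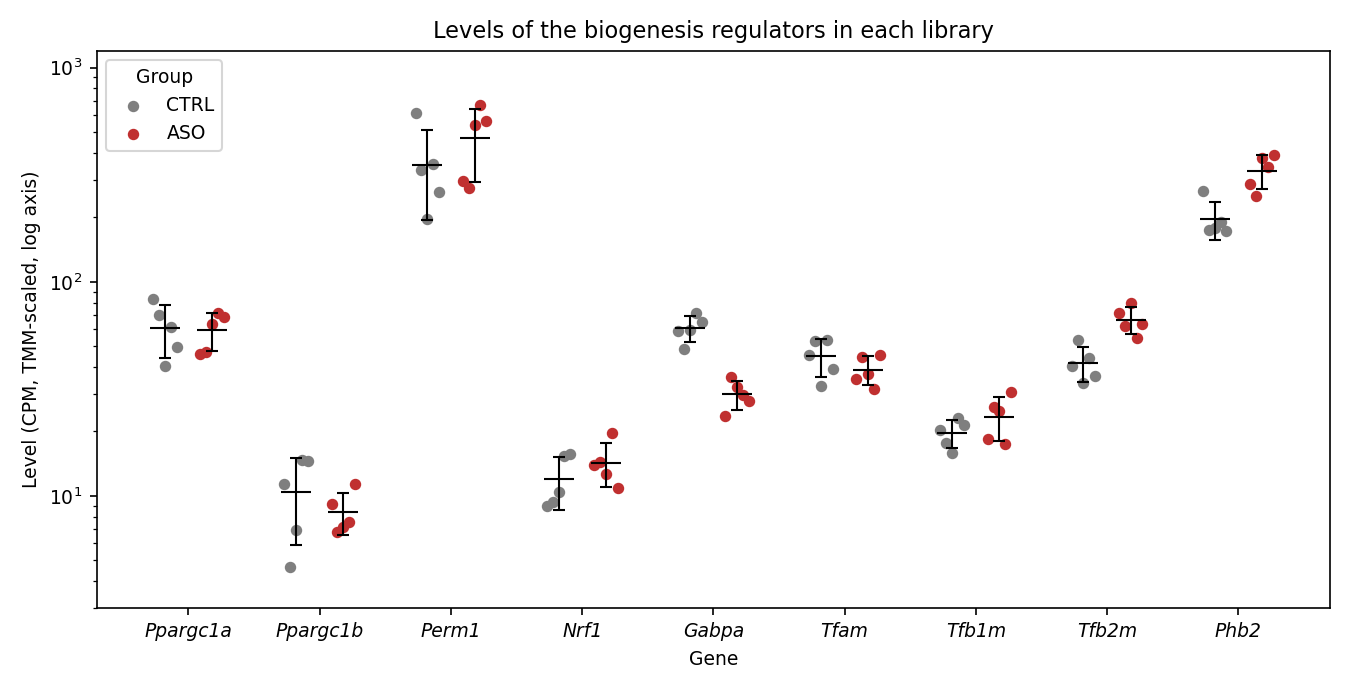
Levels of 9 regulators in each library, as CPM scaled by TMM on a log axis, with CTRL libraries in grey and ASO libraries in red (5 each). Horizontal bars are means and error bars SDs. The groups are separate for Gabpa (ASO below CTRL) and Tfb2m (ASO above CTRL), and a single CTRL library of Phb2, at 266 CPM, lies inside the ASO range.

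Ppargc1a, the master coactivator of the programme, was not called over its summed counts. Its level in CTRL replicates 1 to 5 was 83.0, 69.9, 40.5, 61.4 and 49.4 CPM, and with the ASO it was 45.9, 47.1, 63.9, 71.8 and 68.4 CPM. The groups overlapped over most of their range, and the highest and the lowest library were both CTRL. The means were 60.8 ± 16.7 CPM in CTRL and 59.4 ± 12.1 CPM with the ASO (SD, n = 5 each). The log2 fold change was −0.04 (standard error 0.21, adjusted p = 0.92), with a 95% interval from −0.49 to 0.42, and the exact two-sided permutation test over all labellings gave p = 0.93 (n = 5 each).

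The counted stretches of Ppargc1a did not move together. The table counts up to the last 500 bp of each annotated transcript, and 90.3% of the counts of this gene lie on its most distal segment, at 5:51611592-51612091 (minus strand, GRCm39). Another 9.42% lie 3930 bp upstream, at 5:51615522-51616021. That segment belongs to a transcript annotated as subject to nonsense-mediated decay and overlaps a coding exon of another transcript of the gene. On that upstream segment the CTRL libraries held 17, 18, 15, 25 and 22 counts and the ASO libraries 4, 3, 4, 7 and 5 counts.

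Every ASO library was thus below every CTRL library on the upstream segment of Ppargc1a, although the ASO libraries were the deeper ones. Of all 10658 tested segments, 24.7% were called lower with the ASO, and the share with groups separated in this way was not counted. The upstream level fell from 10.1 ± 3.24 to 2.08 ± 0.66 CPM (SD, n = 5 each). In the fit of all segments this was −2.24 on the log2 scale, with a standard error of 0.33 and an adjusted p of 2.4e-04. The distal segment was at 49.8 ± 16.5 CPM in CTRL and 58.8 ± 12.7 CPM with the ASO, or 0.24 on the log2 scale with an adjusted p of 0.44. In the separate fit of most distal segments alone, the same distal counts gave −0.09 (adjusted p = 0.81), so their sign depended on scaling. The log2 ratio of distal to upstream counts, a comparison added for Ppargc1a, Gabpa and Tfam after their values were seen and with p-values not adjusted over the 3 genes, was 2.26 ± 0.72 in CTRL and 4.69 ± 0.30 with the ASO, without overlap (exact two-sided permutation test, p = 0.0079, the smallest that 5 against 5 libraries allow). The distal-to-upstream ratio over 1261 genes moved in the same direction between these groups, and its part in the Ppargc1a ratio was not tested.

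Ppargc1b, the related coactivator, had few counts. Its level was 4.66 to 14.8 CPM in CTRL and 6.80 to 11.3 CPM with the ASO, from 10 to 26 and 16 to 24 counts a library. The ASO range lay inside the CTRL range. The log2 fold change was −0.31 (standard error 0.33, adjusted p = 0.51), and its 95% interval from −1.01 to 0.40 spans changes in either direction. The counted stretch overlaps Gm46627 on the opposite strand, and the counting options the study lists include none for strand, so reads of the overlapping genes may not be separable.

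Perm1, which encodes the muscle-enriched regulator induced by PGC-1 and ERR factors, was among the most strongly counted of the set and also the most variable. It was counted on a single segment of 500 bp at 4:156305265-156305764 (plus strand), with 611, 333, 197, 353 and 263 CPM in CTRL and 295, 276, 538, 670.4 and 566 CPM with the ASO. CTRL replicate 1 was higher than 4 of the 5 ASO libraries, and ASO replicates 1 and 2 lay among the CTRL libraries. The means were 351 ± 158 and 469 ± 175 CPM (SD, n = 5 each), and the log2 difference of 0.42 had a standard error of 0.32 (adjusted p = 0.35). The 95% interval of that log2 fold change reached from −0.27 to 1.11. Leaving out single libraries moved the log2 fold change from 0.26 (without CTRL replicate 3, adjusted p = 0.56) and 0.27 (without ASO replicate 4, adjusted p = 0.56) to 0.71 (without CTRL replicate 1, adjusted p = 0.083), never past the threshold of the edgeR test.

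Perm1 followed Ppargc1a from library to library. Over the 10 libraries, Pearson's r between the log2(CPM + 1) values of these genes was 0.88 and Spearman's rho 0.87, and r was 0.95 among the CTRL libraries and 0.99 among the ASO libraries. Without the 2 libraries farthest from the Ppargc1a median, r was 0.81. The other 7 tested regulators had r with Ppargc1a from −0.21 (Nrf1) to 0.40 (Tfam). Phb2 was at 0.39 over all libraries, and at 0.69 in CTRL and 0.88 with the ASO taken on their own. These are descriptions over libraries that share scaling and tissue composition, and the pair was singled out after its values were seen. Among all tested genes, those with the highest r with Ppargc1a were Pdhx, a component of the pyruvate dehydrogenase complex, Itgb6, an integrin subunit, and Serpine2, a protease inhibitor, at 0.91, 0.91 and 0.90.

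Nrf1, a DNA-binding factor for many respiratory genes and the only regulator with a full miR-22-3p seed match, was not called. Its summed level was 8.96, 9.33, 10.4, 15.3 and 15.7 CPM in CTRL replicates 1 to 5 and 14.0, 14.4, 12.7, 19.6 and 10.8 CPM with the ASO. The groups overlapped, with the highest library in ASO and the 3 lowest in CTRL. The log2 fold change was 0.27 (standard error 0.25, adjusted p = 0.43), and the exact two-sided permutation test gave p = 0.27 (n = 5 each). Its counts were low, at 19 to 47 a library, and 70.0% of them lie at 6:30152680-30153179, a segment that holds the shorter of its seed matches. The 95% interval from −0.27 to 0.81 includes both no change and a rise of the size seen for Phb2.

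Gabpa, the DNA-binding subunit of the factor also known as NRF2, fell with the ASO. Its level was 58.9, 48.5, 59.8, 71.4 and 64.6 CPM in CTRL and 23.7, 36.1, 32.1, 29.6 and 27.8 CPM with the ASO. The highest ASO library was below the lowest CTRL library, a separation in this direction that 13.4% of all tested genes showed. The means were 60.6 ± 8.40 and 29.9 ± 4.66 CPM (SD, n = 5 each), and the estimate of −1.02 on the log2 scale had a standard error of 0.15 and an adjusted p of 7.2e-04 in edgeR's quasi-likelihood test. The exact two-sided permutation test gave p = 0.0079, its smallest possible value (n = 5 each).

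Gabpa was called on its upstream counted segment and not on the distal one. Its 3′UTR on chromosome 16 (plus strand) holds both, the upstream one at 16:84657704-84658203 and the most distal one at 16:84660168-84660667, 2464 bp further. On the upstream segment the counts were 57, 48, 77, 72 and 87 in CTRL and 23, 23, 32, 38 and 30 with the ASO, and on the distal one they were 68, 56, 44, 49 and 28 in CTRL and 26, 62, 44, 33 and 29 with the ASO. The groups were separate upstream and overlapped at the distal end. How many of all tested segments were separate in this direction was not counted. The log2 fold change was −1.42 (standard error 0.25, adjusted p = 7.1e-04) upstream and −0.51 (standard error 0.25, adjusted p = 0.13) at the distal end. The same distal counts gave −0.82 (adjusted p = 0.052) in the separate fit of most distal segments alone, which is scaled differently. The log2 ratio of distal to upstream counts was −0.50 ± 0.78 in CTRL and 0.36 ± 0.64 with the ASO (exact two-sided permutation test, p = 0.095, n = 5 each), so the difference between the segments did not pass 0.05.

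Esrra, the estrogen-related receptor of the programme, could not be assessed. Its 3 annotated segments overlap almost completely, which left a single base pair that belongs to one of them alone, and the library counts were 3, 3, 0, 1 and 1 in CTRL and 2, 2, 0, 1 and 2 with the ASO. No library exceeded 3 counts, the floor used here, so neither a fold nor an absence can be read from it, and counting intervals of this kind cover counting error only.

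**Figure D2:**
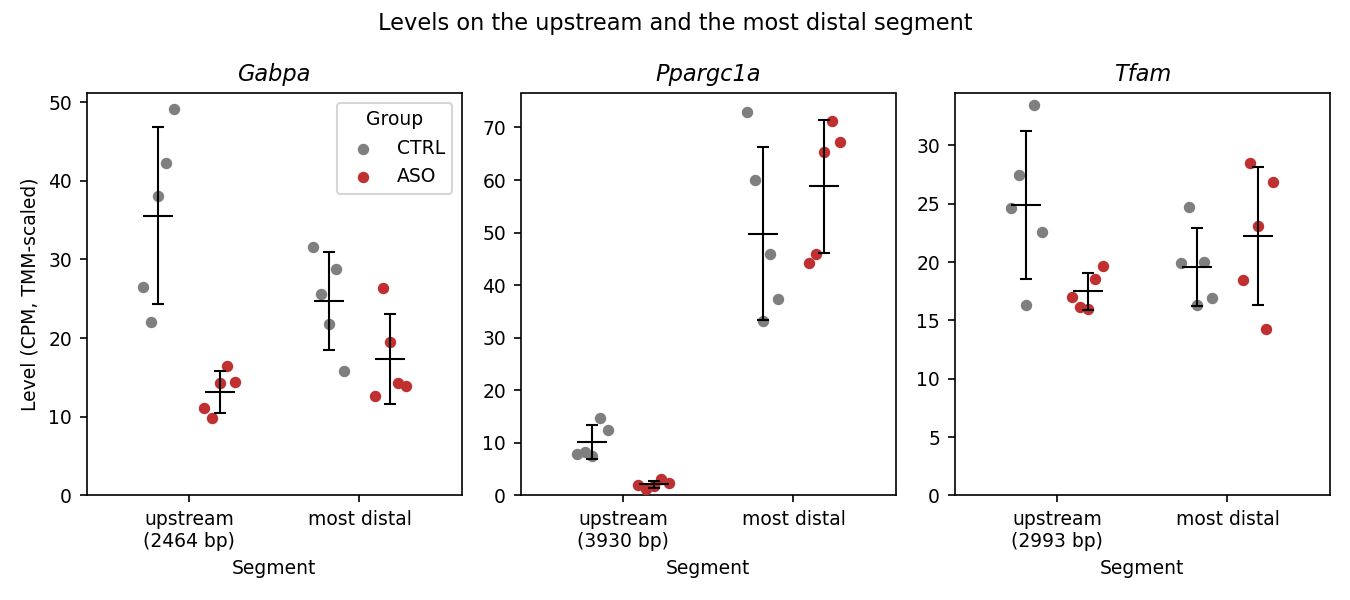
Levels of Gabpa, Ppargc1a and Tfam on the upstream and the most distal counted segment, in CPM scaled by TMM, for 5 CTRL (grey) and 5 ASO (red) libraries, with means and SDs; the distance upstream is given under each label. On the upstream segments of Gabpa and Ppargc1a every ASO library is below every CTRL library, while all distal segments overlap.

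Tfam, which packages mitochondrial DNA and starts its transcription, was not called. Its summed level was 45.3, 53.2, 32.6, 53.7 and 39.3 CPM in CTRL and 35.2, 44.6, 37.2, 31.7 and 45.7 CPM with the ASO, or −0.20 on the log2 scale (standard error 0.17, adjusted p = 0.40). The groups overlapped, with the 2 highest libraries in CTRL. Its counts split nearly evenly between the most distal segment at 10:71061294-71061793 and a stretch of 102 bp at 10:71064287-71064388 (minus strand), 2993 bp upstream. The upstream segment was at 24.9 ± 6.32 CPM in CTRL and 17.5 ± 1.60 CPM with the ASO, and the distal one at 19.6 ± 3.34 and 22.2 ± 5.92 CPM (SD, n = 5 each). Neither segment was called, with log2 fold changes of −0.51 (adjusted p = 0.065) and 0.18 (adjusted p = 0.54). The same distal counts gave −0.14 (adjusted p = 0.72) in the separate fit of most distal segments alone, so their sign depended on scaling. The log2 ratio of distal to upstream counts was −0.32 ± 0.28 in CTRL and 0.30 ± 0.45 with the ASO (exact two-sided permutation test, unadjusted p = 0.040, n = 5 each), and the part of the shift seen over 1261 genes in this ratio was not tested.

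Tfb2m, the factor that works with the mitochondrial RNA polymerase at promoters of mitochondrial DNA, rose with the ASO. Its single segment at 1:179355620-179356119 (minus strand) gave 40.6, 53.6, 33.6, 44.3 and 36.5 CPM in CTRL and 71.5, 62.4, 79.9, 54.7 and 63.7 CPM with the ASO. Every ASO library was above every CTRL library, as 7.98% of tested genes showed in this direction, though the nearest libraries of the groups were only 53.6 and 54.7 CPM. The means were 41.7 ± 7.79 and 66.4 ± 9.60 CPM (SD, n = 5 each), and the log2 difference of 0.67 had a standard error of 0.16 (adjusted p = 0.0085). The exact two-sided permutation test gave p = 0.0079 (n = 5 each).

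Tfb1m, its paralogue, a methyltransferase of mitochondrial ribosomal RNA, was not called. The level was 20.3, 17.7, 15.8, 23.0 and 21.3 CPM in CTRL and 18.3, 25.9, 24.9, 17.5 and 30.6 CPM with the ASO. The 3 highest libraries were ASO, while the other ASO libraries lay within the CTRL range. The log2 fold change was 0.26 (standard error 0.20, adjusted p = 0.35), with a 95% interval from −0.18 to 0.70. That interval includes the 0.67 seen for Tfb2m, and a difference in response between the paralogues was not tested. Of the 296 bp of the Tfb1m segment at 17:3569531-3569826, 154 bp lie outside counted segments of Tiam2, a gene on the opposite strand whose reads may not be separable from its own.

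Phb2, the prohibitin, rose with the ASO and had the largest increase of the set. Its segment at 6:124693597-124693913 (plus strand) gave 266, 175, 179, 190.0 and 172 CPM in CTRL and 285, 251.9, 378, 345 and 392 CPM with the ASO. CTRL replicate 1 stood above its group and above ASO replicate 2, the only overlap. The means were 197 ± 39.6 and 331 ± 60.3 CPM (SD, n = 5 each), and the log2 difference of 0.75 had a standard error of 0.17 (adjusted p = 0.0070) and a 95% interval from 0.37 to 1.12. The exact two-sided permutation test gave p = 0.016 (n = 5 each). The Phb2 segment overlaps Gm15884 on the opposite strand, so, as for Ppargc1b, reads of the overlapping genes may not be separable.

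Segment by segment, the tested segments of the regulators held 2 that rose (Phb2 and Tfb2m) and 2 that fell (the upstream segments of Gabpa and Ppargc1a), where 15.9% of 10658 tested segments were higher and 24.7% lower with the ASO. When each gene was represented by its most distal segment alone, no regulator was called in either direction, against 4.54% higher and 6.62% lower of 5093 genes. In that fit the log2 fold changes were 0.46 for Phb2 (adjusted p = 0.074), 0.38 for Tfb2m (adjusted p = 0.097) and −0.82 for Gabpa (adjusted p = 0.052) by edgeR's quasi-likelihood test. Phb2, Tfb2m, Tfb1m and Perm1 have all their counts on that segment, so for them the counts are the same in both fits. The fits differ in the genes that set the scaling and over which p-values were adjusted (5093 against 7819). Over the 2862 genes of this kind tested in both fits, the median offset of the log2 fold change on that scale was −0.29. Phb2 and Tfb2m lost their calls on the same counts, and the parts of scaling and of the adjustment in this were not tested. Tfb1m was at −0.03 and Perm1 at 0.13 on that scale. Nrf1 had too few counts on its most distal segment to be tested.

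**Figure D3:**
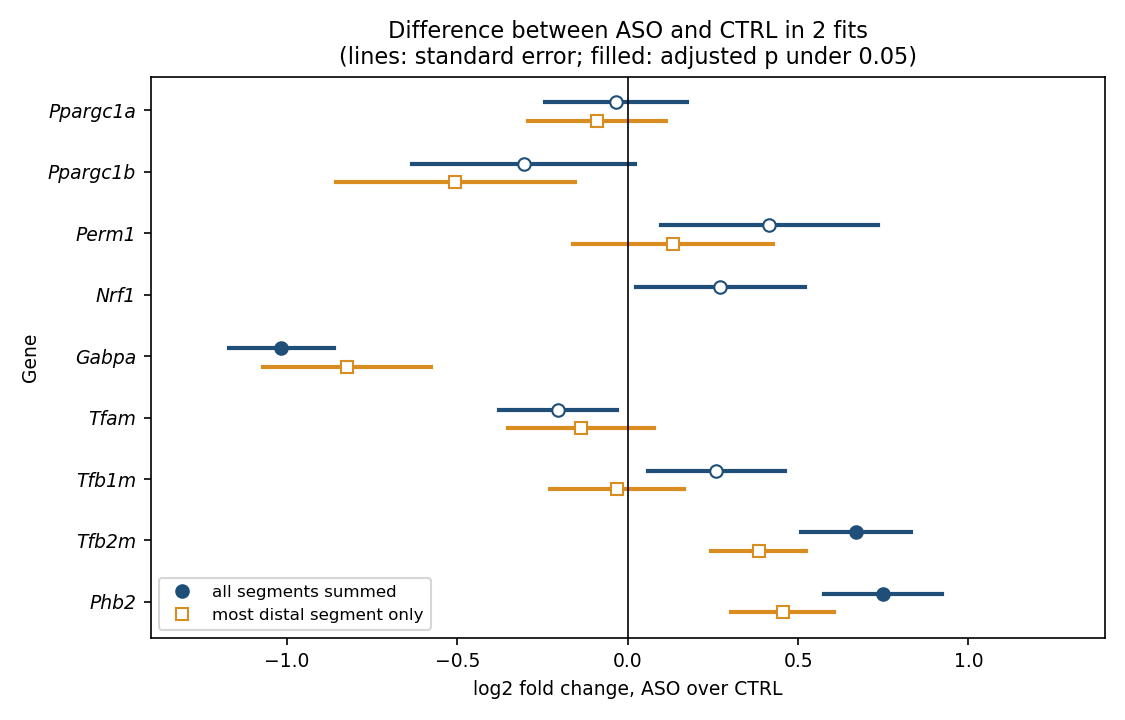
Log2 fold change of ASO over CTRL for 9 regulators in the fit of all segments summed (blue circles) and of the most distal segment only (orange squares), with standard errors; filled symbols have an adjusted p under 0.05. Gabpa, Tfb2m and Phb2 are filled only in the summed fit, and their estimates keep their sign in the other.

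Levels per length put the regulators in a broad order. Taken as mean CPM per kb of unambiguous sequence on the most counted segment, the CTRL order was Perm1 (697), Phb2 (630.0), Tfb1m (127), Ppargc1a (99.6), Tfb2m (82.8), Gabpa (71.2), Tfam (39.2), Nrf1 (30.1) and Ppargc1b (23.1). The most counted segment was chosen over all 10 libraries together. For Gabpa the segment used in both groups was the upstream one, which held 58.2% of its counts in CTRL but only 42.9% with the ASO. For Tfb1m the length used was the 154 bp outside Tiam2, of 296 bp, so its place rests on how strands were counted. For Tfam the distal segment was used in both groups, with 50.2% of its counts. The upstream Tfam segment held 49.8% of them (55.6% in CTRL) on only 55 bp of unambiguous sequence. The low place of Tfam in both groups thus rests on that choice. In CTRL the ranges of neighbours in this order overlapped except between Phb2 and Tfb1m. With the ASO, Phb2 (1093) and Perm1 (963) again stood clear of Tfb1m (156), Tfb2m (136) and Ppargc1a (118), and these 3 stood clear of Tfam (44.5), Nrf1 (36.5), Gabpa (26.4) and Ppargc1b (20.3). On its upstream segment Gabpa, 2 places above Nrf1 in CTRL, was thus just below it with the ASO, where the ranges of those neighbours overlapped.

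Some promoters of the regulators carry motifs of factors in the same list, and they are shown because Gabpa, Phb2 and Tfb2m were the genes called. Promoters of 9 of the 10 genes were found in the RefSeq set (GRCm38.p6), from 250 bases before to 50 after the start site, and were searched on both strands for the GABPA motif CCGGAAGT, the NRF1 motif GCGCATGC and the ERR motif AAGGTCA. Of all 32851 promoters, 3.89% hold the first, 2.71% the second and 4.72% the third. Phb2 holds 3 GABPA matches and Tfam 1, Tfb2m and Esrra hold an NRF1 match each, and Perm1 holds an ERR match. The matched bases are in capitals, with 10 flanking bases on each side, written 5′ to 3′ along the gene, so that a match to the other strand appears as the reverse complement.

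Phb2, GABPA match from −233: tgtaggcagaCCGGAAGTtgcaccgaag
Phb2, GABPA match from −74: aagaggcgggACTTCCGGatgcgccatt
Phb2, GABPA match from 3: agggaggcgcACTTCCGGtgccctttct
Tfam, GABPA match from −47: ctgccgcggaCCGGAAGTccgggcttcc
Tfb2m, NRF1 match from 14: taggtcgttcGCATGCGCcattcgtaat
Esrra, NRF1 match from −34: cccctgttttGCATGCGCaggccggccc
Perm1, ERR match from −202: gaatccggtgTGACCTTagctaatgcc

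The positions count from the start site, with bases before it negative. None of the 3 motifs was found in these windows of Ppargc1a, Nrf1, Gabpa and Tfb1m. A match is a description of the letters, and binding was not measured here.

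Genes around the regulators were read from 5 lists, beside which the shares over all tested genes are 11.7% higher and 17.5% lower. Of 30 partners and inputs of the PGC-1 coactivators, 23 were tested, of which 1 rose and 9 fell, with a median log2 fold change of −0.32. Over the 11 of them tested on their most distal segment alone, the median was 0.28. Ep300, a histone acetyltransferase that works with PGC-1α, rose with a log2 fold change of 0.70 (adjusted p = 0.035), and was at 0.42 and not called from the same counts with the scaling of the most distal segments (adjusted p = 0.20). The p38 kinase gene Mapk14 fell by 2.51, the muscle transcription factor Mef2c fell by 3.04 and the coregulator Lpin1 fell by 1.50 on the log2 scale, with adjusted p of 1.1e-04, 1.1e-04 and 4.7e-04 in edgeR's quasi-likelihood test. The fatty acid receptor Ppara fell by 3.41 (adjusted p = 0.0018 in the same test). Its counts were 10 to 77 a library in CTRL and only 2 to 11 with the ASO.

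The 4 named genes that fell were counted mostly upstream. All counts of Mef2c and Mapk14, 98.3% of those of Lpin1 and 52.1% of those of Ppara lie off the most distal segment of the gene, and no gene of the list was called among the 11 tested on that segment. Mef2c, Mapk14, Lpin1 and Ppara have no test at the distal end.

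Of 18 genes for copying and transcribing mitochondrial DNA, 10 were tested, with 1 higher, 2 lower and a median log2 fold change of 0.33, shares near those of all genes. The 5 tested on their most distal segment alone had a median of 0.30. Polrmt, the mitochondrial RNA polymerase that TFB2M works with, rose from 37.6 ± 4.95 to 64.0 ± 11.4 CPM (SD, n = 5 each), or by 0.76 on the log2 scale (adjusted p = 0.0036), where Tfb2m rose by 0.67. All Polrmt counts lie off its most distal segment. Tk2 and Rrm2b, which supply nucleotides for mitochondrial DNA, fell by 1.33 and 0.57 on the log2 scale (adjusted p = 0.0073 and 0.018). All counts of Tk2 and 18.8% of those of Rrm2b lie off the most distal segment. In edgeR's test of most distal segments alone, Rrm2b was at −0.44 and not called (adjusted p = 0.12).

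Of 12 prohibitin partners and inner membrane proteases, 11 were tested, 5 rose and 2 fell, and the median log2 fold change was 0.46. Over the 8 tested on their most distal segment alone, the median was 0.19, with 0 higher and 1 lower. Phb1, the partner with which PHB2 builds its ring, rose from 258 ± 32.3 to 354 ± 53.7 CPM (SD, n = 5 each), or by 0.46 on the log2 scale (adjusted p = 0.033). The matrix proteases Clpp and Lonp1 and the membrane scaffold Stoml2 rose by 0.80, 0.61 and 0.62 (adjusted p = 0.0081, 0.0090 and 0.019). Spg7, a subunit of an inner membrane protease, and Parl, a rhomboid protease, fell by 1.17 and 0.54, with all their counts off the most distal segment, where they have no test. Phb1, Clpp, Lonp1 and Stoml2 have all their counts on that segment. With the scaling of the most distal segments their log2 fold changes were 0.17, 0.50, 0.32 and 0.33, none of them called (adjusted p = 0.42, 0.080, 0.14 and 0.18), from the same counts.

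Of 29 nuclear genes of the respiratory chain, 23 were tested, 6 rose and 2 fell, with a median log2 fold change of −0.01. Cox5b and Cox6a2 of complex IV, Sdhb of complex II and Atp5f1b of the ATP synthase rose by 0.67, 0.74, 0.83 and 0.58 (adjusted p = 0.027, 0.028, 0.027 and 0.041), whereas Ndufa9 of complex I fell by 2.41 and Sdhd of complex II fell by 0.68 (adjusted p = 5.9e-04 and 0.011). With the scaling of the most distal segments, 0 of the 17 genes of this list tested there rose and 2 fell. The median over those 17 genes was −0.28. From the same counts on that scale, Sdhb, Cox6a2 and Atp5f1b were at 0.54, 0.45 and 0.30 and not called (adjusted p = 0.14, 0.17 and 0.27), and Ndufa9 and Sdhd stayed lower at −2.71 and −0.96 (adjusted p = 0.0016 and 0.0052). Cox5b has 99.3% of its counts upstream and was at −0.02 on its most distal segment (adjusted p = 0.98). Of 20 fuel oxidation genes, 17 were tested, 1 rose and 4 fell, with a median of 0.07. The 12 tested on their most distal segment alone had a median of 0.03. The glucose transporter gene Slc2a4 rose by 0.51 (adjusted p = 0.022) and, with nearly all its counts on the most distal segment, was at 0.22 and not called on that scale (adjusted p = 0.27). Hadhb and Acadm, enzymes of fatty acid oxidation, fell by 2.15 and 1.15 (adjusted p = 2.0e-04 and 6.8e-04), and the fatty acid uptake genes Cd36 (cell membrane) and Cpt1b (mitochondria) fell by 0.88 and 0.60 (adjusted p = 0.029 and 0.043). Acadm also fell by 0.91 on its most distal segment (adjusted p = 0.0083), where Cd36 was at −0.53 (adjusted p = 0.21). Hadhb and Cpt1b were counted almost wholly upstream and have no test there.

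**Figure D4:**
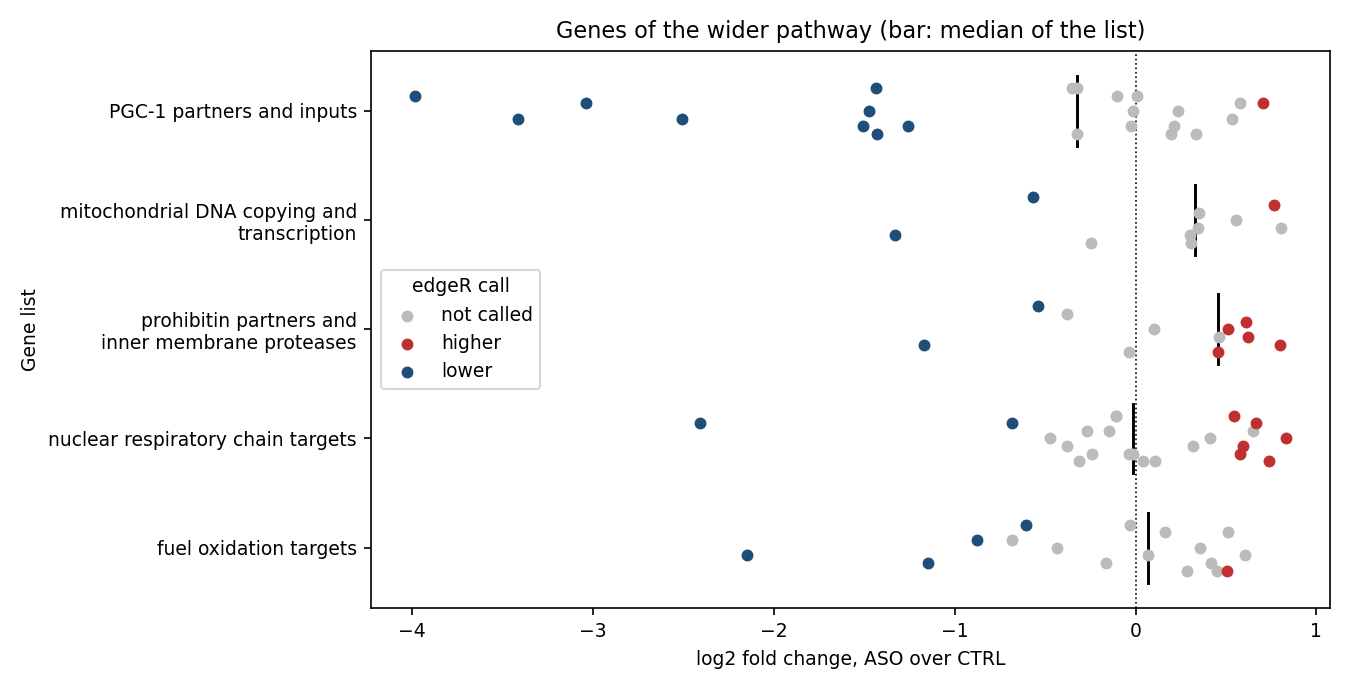
Log2 fold change of ASO over CTRL for each tested gene of 5 lists around the regulators, in the fit of all segments summed, with genes called higher in red, lower in blue and not called in grey; vertical bars are list medians. The lowest values, down to −3.98, are in the list of PGC-1 partners and inputs, and the prohibitin list has the highest median, 0.46.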

How the data were processed

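RNA of 10 frozen gastrocnemius muscles, 1 per mouse, was sequenced as stranded poly(A) libraries in paired-end reads. The authors used fastp for trimming, STAR for alignment to GRCm39 and featureCounts with Gencode M25, and deposited raw counts of read pairs over at most the final 500 bp of each annotated 3′UTR. The options they list include none for strand. The table has 52423 segments named by transcript, of which 62 (0.0197% of counts) were not found in GENCODE M39, and 4 further per-sample columns were not used. Segments were summed per gene here. Coordinates identical to those of another segment occur in 11523 segments. Read pairs shared by overlapping segments appear uncounted, since among the regulators every segment without a base of its own holds 0.

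Genes were tested with edgeR 4.0.16 (R 4.3.3), with TMM scaling, a group-aware filter on low counts and its quasi-likelihood test, and p-values were adjusted by Benjamini-Hochberg at 0.05. CPM values are TMM-scaled, and errors are SDs over 5 libraries. Single genes were also tested by exact two-sided permutation of mean log2(CPM + 1). All segments, and the most distal segment of each gene, were fitted separately. In that last fit a gene enters with the segment nearest its annotated 3′ end. Alternatives were other scalings and filters, DESeq2 1.42.0, limma-voom (limma 3.58.1), a replicate block, thinning to the smallest library and leaving out each library. DESeq2, the tool of the authors, was kept as an alternative to the test chosen for counts. The edgeR step, tested on simulated data for this comparison (7898 genes), recovered 93 of 100 genes changed by a log2 of 1 and 100 of 100 changed by 2, with 4 false calls. The simulated libraries shared a pooled profile and a fixed dispersion, without a 3′ shift, and genes with low counts were not changed. These rates therefore need not hold for the real libraries.

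The 10 regulators are given in full, and list genes named are up to 4 per direction by smallest adjusted p. The members and lists were chosen with earlier results of these data known. Replicate numbers did not pair the samples.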

Additional observations from a re-analysis of the deposited data

Results flagged for a closer look

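In CTRL replicate 1, Phb2 was at 266 CPM, while the other 4 CTRL libraries lay between 172 and 190.0 CPM. The gap to the nearest library took up 0.777 of the range of the group, above the Dixon critical value of 0.71 for 5 libraries. Chance gives such a gap in about 1 in 20 groups, and 18 groups of regulator values were examined. Leaving out single libraries kept the log2 fold change of Phb2 between 0.69 and 0.89.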

How the results depend on the processing

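With segments summed, Phb2 and Tfb2m stayed higher and Gabpa lower in each of the 20 alternatives, with log2 fold changes of 0.56 to 0.89, 0.49 to 0.78 and −1.20 to −0.92. With only the most distal segments, 0 regulators rose and 0 fell, with 231 genes higher and 337 lower overall. Scaling by total counts moved the median of all genes by −0.18, left 528 genes higher and made 4 segments of regulators lower in place of 2. It also brought the exact permutation p of Tfam to 0.040. Ppargc1a had no stable sign, at 0.048 with upper-quartile scaling, 0.0021 with DESeq2, 0.018 after thinning and −0.16 to 0.10 when single libraries were left out. In the fit of the most distal segments, whose scaling lowers genes with unchanged counts by a median offset of −0.29, Tfb1m turned to −0.032 from the same counts (difference of mean log2 values −0.051, exact permutation p = 0.76). The correlation of same-numbered samples was −0.43 to 0.16, so the numbers were not taken to pair the samples. With the replicate block 663 genes rose and 1175 fell, with 2 regulators higher and 1 lower, and the log2 fold changes were 0.75 for Phb2, 0.68 for Tfb2m and −1.02 for Gabpa. The cause of the other shifts was not tested. Counts under 50 a library limit Ppargc1b and Nrf1, and Esrra is not measurable. Among the list genes named, low counts also limit Ndufa9, Tk2 and, with the ASO, Ppara.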
